A study of Homo sapiens with 4 samples.

Results

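ATP-binding cassette (ABC) transporters, including the drug efflux pumps, were followed in 4 human hepatoma cultures by RNA sequencing. Members were all genes whose symbol starts with ABCA, ABCB, ABCC, ABCD, ABCE, ABCF or ABCG followed by a number. They numbered 45 of 16370 genes with a row in any culture. There were 13 members in ABCA, 8 in ABCB, 12 in ABCC, 4 in ABCD, 1 in ABCE, 3 in ABCF and 4 in ABCG. The Hep3B pair of cultures listed 42 members of 15480 genes, the Huh7 pair 42 of 14807, and 39 members were listed in both. In 32 members at least 1 culture reached 20 counts. The other 13 stayed under 20 counts in every culture.

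Hep3B and Huh7 are established human hepatoma cell lines and formed the hepatocellular carcinoma (HCC) group. Stem-like cultures raised from each of them, named Hep3B-C and Huh7-C, formed the hepatic cancer stem cell (HCSC) group. No drug or other agent is named in the labels for any culture. Each cell line gave 1 library, so each group held 2 libraries from 2 parental lines, and no line had a second culture against which a difference could be checked. The libraries of Hep3B, Hep3B-C, Huh7 and Huh7-C held 2896418, 4641927, 4537510 and 4333808 gene counts. Levels are counts scaled to these totals (CPM), and 3 counts, the floor used for each library, came to 1.04, 0.646, 0.661 and 0.692 CPM. Of 7 markers of hepatocytes and fetal liver, 7 had at least 10 counts in every library. AFP had only 26 counts in Huh7 and 12 in Huh7-C, and TTR had 13 in each. ALB stood at 19541 and 18469 CPM in Hep3B and Hep3B-C but at 106 and 267 CPM in Huh7 and Huh7-C. APOB was also lower in Huh7 than in Hep3B, while APOA1, SERPINA1 and HNF4A were higher. Summed marker levels were 10.8 to 45.2 CPM for mesenchymal, 2.80 to 21.5 CPM for endothelial and 186 to 451 CPM for blood cells, the last almost wholly from CD68 and LYZ, while PTPRC and HBB had no row. Of the stem cell markers, PROM1 went from 1076 to 361 counts and EPCAM from 1489 to 820 in the Hep3B pair. In the Huh7 pair PROM1 had 114 and 88 counts, EPCAM 196 and 211, and CD44 177 and 22. The part of these markers in the results was not tested.

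ABC proteins bind and split ATP through a pair of conserved nucleotide-binding domains. Most members couple this to moving a substrate across a membrane. In the liver they export drugs and conjugates, load bile with bile salts, phospholipid and sterol, and pass cholesterol to lipoproteins, while others sit in mitochondria, lysosomes and peroxisomes. The ABCE and ABCF members have no membrane-spanning part and act on ribosomes. Efflux pumps such as ABCB1 and ABCG2 are widely used as features of drug-resistant and stem-like cells.

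The start regions of 6 members are shown because these members kept their difference in the Hep3B pair under 6 alternative settings listed below. They are ABCB6, ABCB8, ABCF2 and ABCG2 on the higher side of Hep3B-C, and ABCA9 and ABCC9 on the lower side. The pseudogene ABCC6P1 also kept its difference and is not shown. Each start region is a window of 300 bases, most of it upstream of a transcript start, printed 5′ to 3′ (RefSeq, GRCh38.p14). Capitals mark matches on either strand to the GC box (GGGCGG), the E-box (CACGTG), the core of the xenobiotic response element (GCGTG) and the core of the antioxidant response element (TGACNNNGC). In ABCB6 an E-box and an antioxidant core overlap, and in ABCB8 a pair of GC boxes overlap. ABCG2 has 5 listed starts, and the one shown is among those with the most matches.
ABCB6, chr2:219218909-219219208, minus strand: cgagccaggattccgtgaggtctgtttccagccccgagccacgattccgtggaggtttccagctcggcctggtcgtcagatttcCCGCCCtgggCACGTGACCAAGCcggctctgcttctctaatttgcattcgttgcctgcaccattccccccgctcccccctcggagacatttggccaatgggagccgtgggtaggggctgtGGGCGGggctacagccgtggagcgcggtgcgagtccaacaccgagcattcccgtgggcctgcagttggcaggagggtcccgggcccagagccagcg
ABCB8, chr7:151028200-151028499, plus strand: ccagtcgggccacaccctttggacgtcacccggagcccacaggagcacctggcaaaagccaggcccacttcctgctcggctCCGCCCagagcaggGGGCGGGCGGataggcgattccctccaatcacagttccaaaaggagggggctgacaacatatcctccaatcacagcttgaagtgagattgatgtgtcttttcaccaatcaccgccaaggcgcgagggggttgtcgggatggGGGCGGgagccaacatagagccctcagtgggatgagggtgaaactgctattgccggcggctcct
ABCF2, chr7:151227156-151227455, minus strand: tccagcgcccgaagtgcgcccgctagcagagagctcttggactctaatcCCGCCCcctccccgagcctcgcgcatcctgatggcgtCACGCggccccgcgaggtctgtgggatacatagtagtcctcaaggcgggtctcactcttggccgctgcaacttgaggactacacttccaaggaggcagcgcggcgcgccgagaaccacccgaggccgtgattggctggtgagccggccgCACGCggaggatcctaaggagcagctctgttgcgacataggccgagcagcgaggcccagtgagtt
ABCG2, chr4:88158810-88159109, minus strand: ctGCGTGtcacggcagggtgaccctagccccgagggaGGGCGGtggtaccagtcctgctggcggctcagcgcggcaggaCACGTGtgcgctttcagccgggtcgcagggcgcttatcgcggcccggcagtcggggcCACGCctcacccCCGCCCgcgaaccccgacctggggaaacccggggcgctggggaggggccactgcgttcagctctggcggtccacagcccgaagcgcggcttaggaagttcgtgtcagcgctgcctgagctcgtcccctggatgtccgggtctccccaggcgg
ABCA9, chr17:69060878-69061177, minus strand: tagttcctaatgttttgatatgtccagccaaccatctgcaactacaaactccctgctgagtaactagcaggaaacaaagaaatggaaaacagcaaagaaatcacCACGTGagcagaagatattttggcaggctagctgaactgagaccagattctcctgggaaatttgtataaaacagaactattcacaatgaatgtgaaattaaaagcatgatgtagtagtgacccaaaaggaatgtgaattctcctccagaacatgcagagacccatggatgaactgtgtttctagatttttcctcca
ABCC9, chr12:21941377-21941676, minus strand: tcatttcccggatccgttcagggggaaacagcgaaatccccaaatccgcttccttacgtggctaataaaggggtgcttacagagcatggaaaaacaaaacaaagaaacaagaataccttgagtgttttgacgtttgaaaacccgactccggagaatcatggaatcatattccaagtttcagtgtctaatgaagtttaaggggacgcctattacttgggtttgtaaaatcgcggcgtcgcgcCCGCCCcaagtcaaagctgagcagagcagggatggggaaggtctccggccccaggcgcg
In these windows ABCB6 held 2 GC boxes, 1 E-box and 1 antioxidant core. ABCB8 held 4 GC boxes and no other match, and ABCF2 held 1 GC box and 2 xenobiotic cores. The ABCG2 window held 2 GC boxes, 1 E-box and 2 xenobiotic cores. The ABCA9 window held 1 E-box only, and the ABCC9 window 1 GC box only. GC content was 65.7% for ABCB6, 61.0% for ABCB8, 65.3% for ABCF2 and 72.3% for ABCG2, against 39.7% for ABCA9 and 49.7% for ABCC9. This contrast covers the windows shown only. The other listed ABCG2 windows had 72.0%, 70.0%, 48.3% and 40.3%. Of members that fell in Hep3B-C and are not shown, ABCA2 had 64.3% and 86.7%, ABCA5 76.3% and ABCC5 65.7%. ABCA10, which also fell, had 32.3% in a window and less in its other window. Of the 45 members, 33 had 49 listed start regions. Some genes have several windows, and some of these overlap and hold the same matches, so the 49 are not independent. A GC box stood in 51.0% of these 49, against 45.0% of all 35116 start regions. An E-box stood in 18.4% against 7.26%, a xenobiotic core in 46.9% against 36.5%, and an antioxidant core in 24.5% against 13.3%. The member windows had a median GC content of 62.0%, against 58.7% for all. A match is a run of letters and does not show that a factor binds there.

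To compare levels between genes, counts were scaled by gene length and library total (RPKM). ABCF1, which acts in translation initiation, had the highest RPKM of all members in Hep3B (94.4), Hep3B-C (155) and Huh7-C (98.5). In Huh7 the first place went to ABCD3, the most abundant peroxisomal half-transporter, at 122 RPKM, with ABCF1 next at 77.3 RPKM. ABCC2, the conjugate pump of the bile canaliculus, stood at 18.7, 25.1, 38.9 and 56.1 RPKM in Hep3B, Hep3B-C, Huh7 and Huh7-C. It was the most abundant drug efflux member in all 4 libraries. ABCB6 was at 8.83 RPKM in Hep3B and took the second place of all members in Hep3B-C at 75.3 RPKM. Summed over members, the level was 1630, 1909, 1808 and 1872 CPM in Hep3B, Hep3B-C, Huh7 and Huh7-C.

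**Figure D1:**
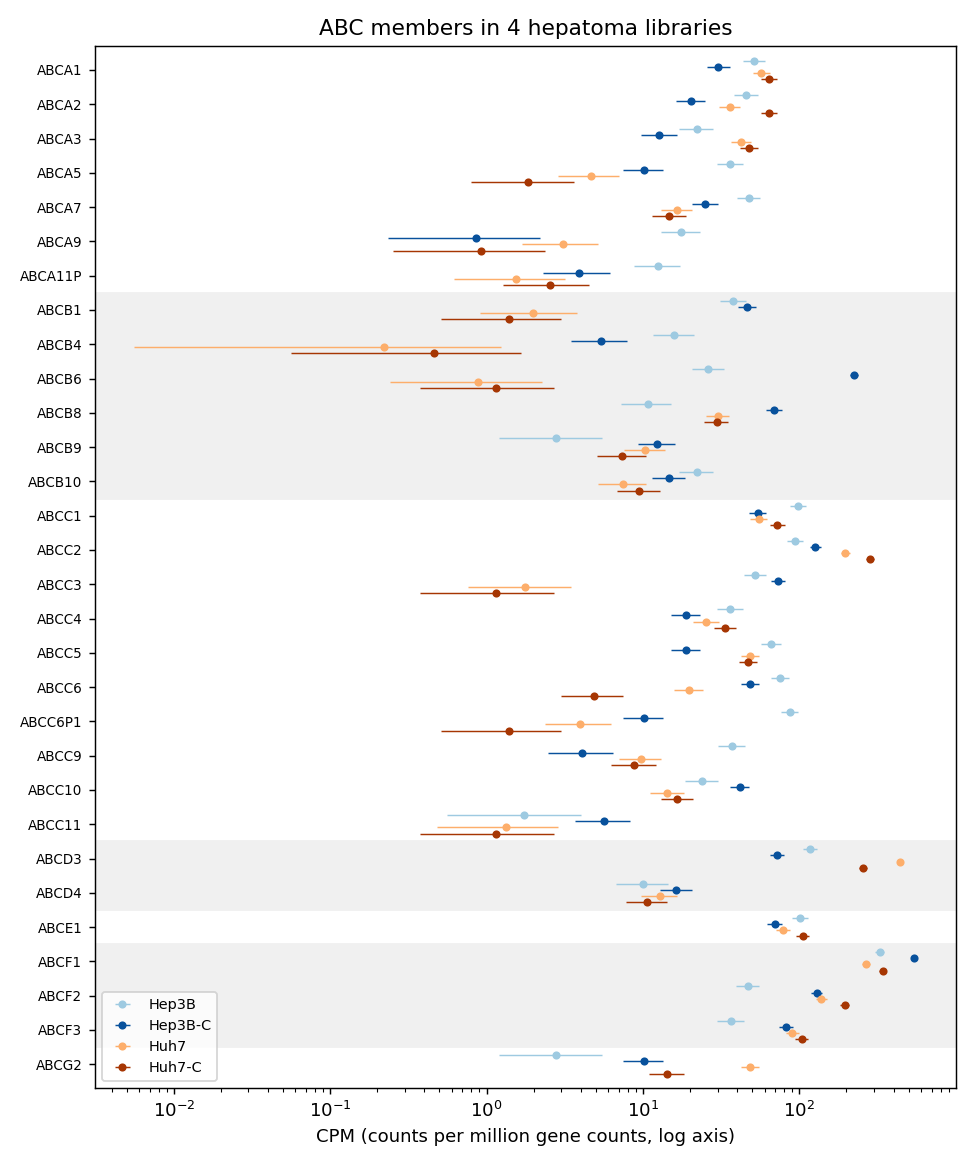
Level of 30 ABC members with at least 20 counts in a library, in CPM on a log axis, 1 point per library with its exact 95% Poisson interval, which covers counting error only. Shading separates the subfamilies. ABCB6 stands at 224 CPM in Hep3B-C and at 0.882 and 1.15 CPM in Huh7 and Huh7-C.

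Each stem-like culture was compared with its parental line, as in the study, to ask which members differ in cells enriched for stem-like properties. The Audic-Claverie test, which asks whether a gene's counts in 2 libraries differ by more than Poisson sampling, was used with a false discovery rate (FDR) of at most 0.01 over all genes of the pair and an absolute log2 ratio of at least 1. It compares these 2 libraries and not the conditions, since it covers sampling noise only. Below, "rose" and "fell" stand for members that passed both thresholds, intervals are exact 95% intervals for counting error, and SE is the standard error of the log2 ratio from Poisson counts. In bulk RNA, fewer cells that express a gene and less of its RNA per cell cannot be told apart.

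In Hep3B-C 7 of 42 members rose (16.7%), against 13.2% of all genes, and 10 of 42 fell (23.8%), against 30.4% of all genes. ABCB6, ABCB8, ABCB9, ABCF2, ABCF3 and ABCG2 were among those that rose. ABCA2, ABCA5, ABCA9, ABCA10, ABCA11P, ABCB4, ABCC5, ABCC6P1 and ABCC9 were among those that fell. In Huh7-C no member rose (0 of 42), against 4.19% of all genes, and 2 of 42 fell (4.76%), against 4.15% of all genes. These 2 were ABCC6 and ABCG2. These shares lay near the background of each pair, so the counts alone set ABC members apart in neither. In Hep3B-C the median log2 ratio was -0.69 for members and -0.68 for all genes, and in Huh7-C it was -0.09 and 0.07. No member was called in the same direction in both pairs, and ABCG2 alone was called in opposite directions.

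The scale of the Hep3B pair matters for these directions. With TMM library sizes every log2 ratio of that pair was higher by 0.60, and 14 members rose (33.3%, against 21.6% of all genes) while 5 fell (11.9%, against 18.1%). Ratios in the Hep3B pair also followed GC content and gene length across genes (Spearman 0.631 with GC content and -0.433 with length over 11433 genes with at least 20 counts), and for 33 members the coefficients were 0.437 and -0.355. Members were longer than other genes of that pair, at a median of 4772.5 against 2794.5 bases. With both trends removed 6 members rose (14.3%, against 3.89% of all genes) and 11 fell (26.2%, against 25.7%). With genes of at least 20 counts over the pair alone, 7 of 33 members so kept rose (17.7% of all genes so kept) and 9 of 33 fell (37.5%). In the Huh7 pair TMM moved the ratios by -0.04, and 0 members rose and 2 fell with TMM (3.73% and 4.46% of all genes). The same 0 and 2, of 28 members kept, were found with the count filter (5.38% and 5.25% of all genes kept). With GC and length trends removed it was 0 and 3 (2.86% and 4.15%). Where a biological coefficient of variation of 0.4 was assumed for want of replicates, 0 of 42 members were called in either pair, beside 0.401% of all genes up and 1.09% down in Hep3B-C and 0.0878% up and 0.081% down in Huh7-C. ABCB6, ABCB8, ABCF2 and ABCG2 rose and ABCA9, ABCC6P1 and ABCC9 fell in Hep3B-C with totals and under 6 alternatives (TMM, DESeq2 size factors, 5 added to each count, the count filter, the length trend removed, GC and length trends removed), as ABCC6 and ABCG2 fell in Huh7-C.

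**Figure D2:**
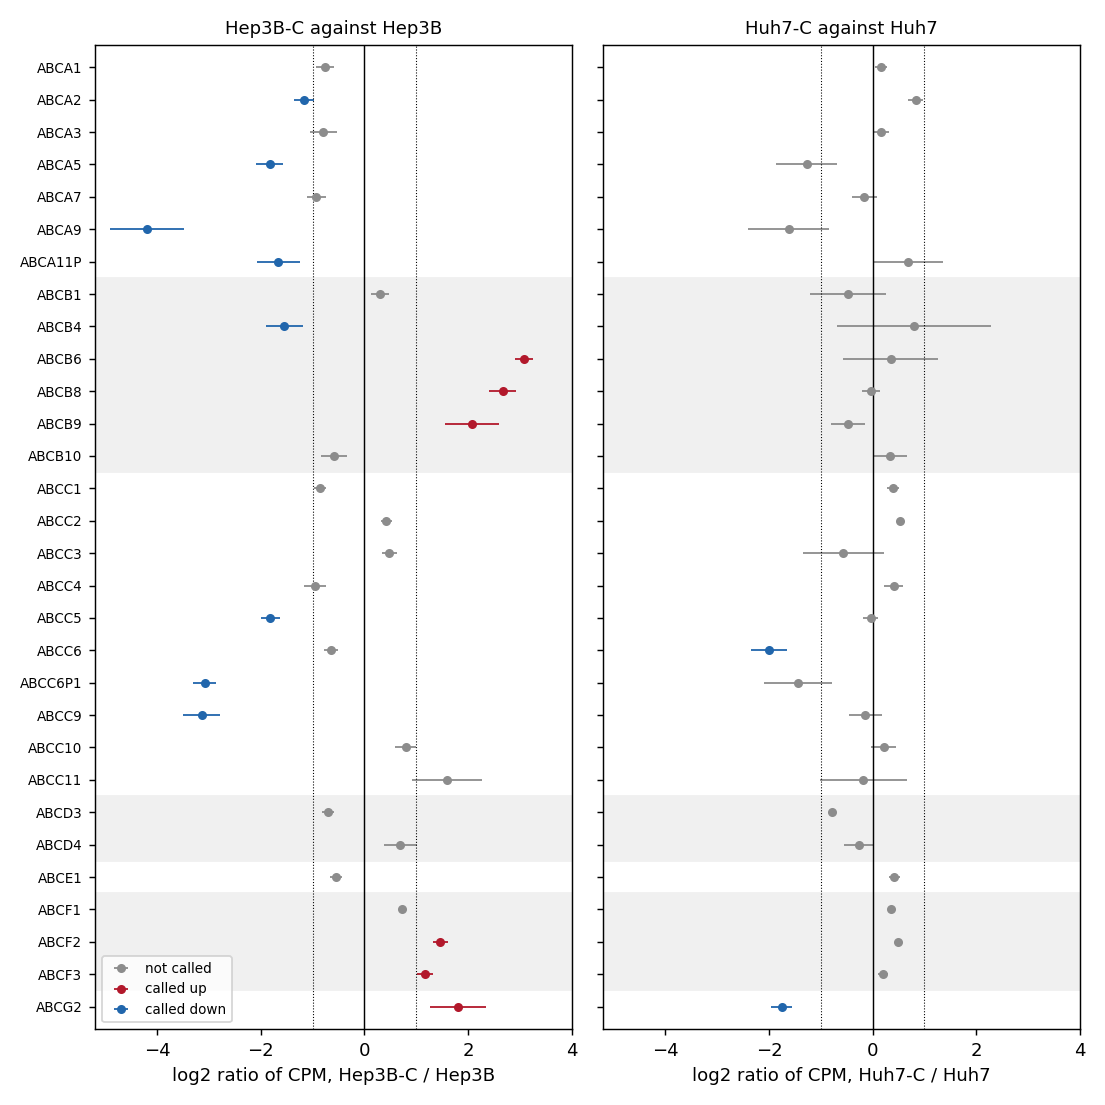
Log2 ratio of CPM (HCSC/HCC) of 30 members with at least 20 counts in a library, with its SE from Poisson counts, for Hep3B-C (left) and Huh7-C (right). Red points rose and blue points fell, dotted lines mark a log2 ratio of 1 in size, and grey points were not called. ABCG2 is red on the left at 1.80 and blue on the right at -1.75.

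The drug efflux members were read first, since they are the ones tied to drug resistance. Of 10 listed members 1 rose and 1 fell in Hep3B-C, beside 13.2% and 30.4% of all genes. In Huh7-C none rose and 2 fell, beside 4.19% and 4.15% of all genes. Their summed level was 489 CPM in Hep3B and 443 CPM in Hep3B-C, a ratio of 0.908 (0.848 to 0.972), and 413 CPM in Huh7 and 476 CPM in Huh7-C, a ratio of 1.15 (1.08 to 1.23). The first of these sums turned above 1 with TMM, to a ratio of 1.37. With TMM 5 of the 10 rose and 1 fell in Hep3B-C (21.6% and 18.1% of all genes). With GC and length trends removed 3 rose and 3 fell there (3.89% and 25.7% of all genes).

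ABCG2, a half-transporter that exports drugs, porphyrins and urate and marks side-population cells, had 8 counts in Hep3B and 47 in Hep3B-C. The levels were 2.76 and 10.1 CPM, 3.67-fold higher in Hep3B-C (1.72 to 8.98), with a log2 ratio of 1.80 ± 0.54 (SE). In the Huh7 pair its counts were 220 in Huh7 and 62 in Huh7-C, or 48.5 and 14.3 CPM. That was 3.39-fold lower in Huh7-C (2.55 to 4.57), with a log2 ratio of -1.75 ± 0.21 (SE). Huh7 thus held the most ABCG2 RNA of the 4 cultures and Hep3B the least, and Hep3B-C lay a little under Huh7-C with overlapping counting intervals. Both directions held with TMM, at 2.40 and -1.79, and with GC and length trends removed, at 2.87 and -1.91. The difference between the pairs was not tested, for want of replicates. The 8 counts in Hep3B limited the precision of its fold.

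ABCB1, the P-glycoprotein, was found mainly in the Hep3B lineage. It had 109 counts in Hep3B and 215 in Hep3B-C, but 9 in Huh7 and 6 in Huh7-C, at 37.6, 46.3, 1.98 and 1.38 CPM. It was not called in Hep3B-C, with a log2 ratio of 0.30 ± 0.17 (SE) and a ratio of 1.23 (0.973 to 1.56). At 9 and 6 counts the Huh7 ratio of 0.698 ranged from 0.204 to 2.20, so no difference was detectable at this depth. With GC and length trends removed ABCB1 did rise in Hep3B-C, at a log2 ratio of 1.32.

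ABCC1, a broad exporter of glutathione conjugates, had 285 and 252 counts in Hep3B and Hep3B-C and 249 and 313 in Huh7 and Huh7-C. Its levels were 98.4, 54.3, 54.9 and 72.2 CPM, with log2 ratios of -0.86 ± 0.12 (SE) in Hep3B-C and 0.40 ± 0.12 (SE) in Huh7-C. Both passed the FDR threshold but not the threshold of size, and with GC and length trends removed ABCC1 fell in Hep3B-C at -1.07. Its Hep3B-C value was -0.26 with TMM and 0.09 with the length trend alone removed. ABCC2, its counterpart of the canalicular membrane, had 273, 588, 892 and 1229 counts in Hep3B, Hep3B-C, Huh7 and Huh7-C. Its log2 ratios were 0.42 ± 0.11 (SE) and 0.53 ± 0.06 (SE), also past the FDR threshold and under 1 in size. In Hep3B-C it passed that size under 4 alternatives, at 1.02 with TMM, 1.11 with DESeq2 size factors, 1.14 with the length trend removed and 1.30 with GC and length trends removed. ABCC2 thus held the same sign in both pairs, as 1.34-fold (1.16 to 1.56) and 1.44-fold (1.32 to 1.57) higher levels in the stem-like cultures.

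ABCC3, a basolateral exporter of bile acids and glucuronides, followed the same lineage split as ABCB1. Hep3B and Hep3B-C had 151 and 339 counts of it, Huh7 and Huh7-C 8 and 5, with a log2 ratio of 0.48 ± 0.14 (SE) in Hep3B-C and -0.56 ± 0.79 (SE) in Huh7-C. The Hep3B-C value was 1.08 with TMM, where ABCC3 rose, and -0.04 with GC and length trends removed. ABCC4, which exports cyclic nucleotides and nucleotide drugs, had 105, 87, 115 and 146 counts in the order Hep3B, Hep3B-C, Huh7, Huh7-C. Its log2 ratios were -0.95 ± 0.21 (SE) and 0.41 ± 0.18 (SE), neither called, and the first turned to 0.25 with GC and length trends removed.

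ABCC5, an exporter of cyclic nucleotides, fell in Hep3B-C. Counts were 192 in Hep3B and 87 in Hep3B-C, or 66.3 and 18.7 CPM, 3.54-fold lower (2.73 to 4.61) with a log2 ratio of -1.82 ± 0.19 (SE). In Huh7 and Huh7-C it had 219 and 204 counts, with a log2 ratio of -0.04 ± 0.14 (SE). The fall in Hep3B-C stayed at -1.22 with TMM and -1.46 with GC and length trends removed, and was -0.96, no longer called, with the length trend alone removed.

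ABCC6, a transporter of hepatocytes needed for ATP release and linked to ectopic mineralization, fell in Huh7-C. Counts were 89 in Huh7 and 21 in Huh7-C, or 19.6 and 4.85 CPM, 4.05-fold lower (2.49 to 6.86) with a log2 ratio of -1.99 ± 0.35 (SE). In Hep3B and Hep3B-C it had 218 and 224 counts, at 75.3 and 48.3 CPM and a log2 ratio of -0.64 ± 0.14 (SE), which was not called. That value was -0.05 with TMM, and -1.39 and called with GC and length trends removed. Reads of ABCC6 are uncertain, because its pseudogenes ABCC6P1 and ABCC6P2 are near-identical copies of its first exons and how reads that match several places were handled is not known here.

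The pseudogene ABCC6P1 had 251 counts in Hep3B and 47 in Hep3B-C, or 86.7 and 10.1 CPM, 8.56-fold lower (6.25 to 12.0) with a log2 ratio of -3.08 ± 0.23 (SE). In Huh7 and Huh7-C it had 18 and 6 counts, with a log2 ratio of -1.44 ± 0.66 (SE) that was not called. When ABCC6 and both pseudogenes were counted as 1 feature, an alternative chosen after seeing the data, counts went from 480 to 282 in the Hep3B pair and from 118 to 37 in the Huh7 pair. The feature then fell in both pairs, 2.73-fold (2.35 to 3.17) in Hep3B-C and 3.05-fold (2.09 to 4.53) in Huh7-C. Its log2 ratios were -1.45 ± 0.11 (SE) and -1.59 ± 0.27 (SE). This feature was tested with total gene counts only. TMM raises every log2 ratio of the Hep3B pair by 0.60, which brings its Hep3B-C value under 1 in size.

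Of the remaining drug efflux members, ABCC10 had 69, 193, 65 and 72 counts in Hep3B, Hep3B-C, Huh7 and Huh7-C. Its log2 ratios were 0.80 ± 0.20 (SE) and 0.21 ± 0.25 (SE), neither called, and with TMM it rose in Hep3B-C at 1.39. ABCC11, an exporter best known from apocrine glands, had 5, 26, 6 and 5 counts, with log2 ratios of 1.59 ± 0.68 (SE) and -0.17 ± 0.84 (SE), neither called. It too rose in Hep3B-C with TMM, at 2.18.

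The bile canaliculus holds ABCB1, ABCB4, ABCC2, ABCG2 and the sterol pair ABCG5 and ABCG8. Of its 5 listed members in each pair, 1 rose and 1 fell in Hep3B-C, beside 13.2% and 30.4% of all genes. In Huh7-C none rose and 1 fell, beside 4.19% and 4.15%. With TMM 3 rose and none fell in Hep3B-C (21.6% and 18.1% of all genes). ABCB4, the floppase that brings phosphatidylcholine into bile, fell in Hep3B-C from 46 to 25 counts, 2.95-fold (1.77 to 5.01) with a log2 ratio of -1.55 ± 0.36 (SE). It had 1 and 2 counts in Huh7 and Huh7-C, under the floor of 3. ABCB4 lies next to ABCB1 on chromosome 7, and the neighbour was not called in the same pair. Its log2 ratio was -0.95 with TMM, which was no longer a call.

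Most ABCA members handle sterols and lipids. The 13 in the files, pseudogenes included, summed to 239 CPM in Hep3B and 105 CPM in Hep3B-C, a ratio of 0.438 (0.389 to 0.492), and none had a log2 ratio above 0, where the median of all genes was -0.68. With GC and length trends removed 3 of the 13 were above 0 there. In Huh7 and Huh7-C they summed to 166 and 199 CPM, a ratio of 1.19 (1.08 to 1.32), with 6 above 0 and 7 below. In Hep3B-C 5 of the 13 fell, beside 30.4% of all genes, and none rose. In Huh7-C none was called. With TMM the summed log2 ratio in Hep3B-C was -0.60 in place of -1.19, and 2 of the 5 calls, ABCA5 and ABCA9, were kept. The wider sterol and lipid list of 14 members adds ABCG4, ABCG5 and ABCG8 and leaves out the pseudogenes. In Hep3B-C none of its members rose and 4 of 12 fell, beside 13.2% and 30.4% of all genes. None of 13 was called in Huh7-C.

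ABCA9, a member of the ABCA6-like group on chromosome 17 with a poorly known substrate, showed the largest fold among members with 20 counts. It had 51 counts in Hep3B and 4 in Hep3B-C, or 17.6 and 0.862 CPM, 20.4-fold lower (7.51 to 77.9) with a log2 ratio of -4.20 ± 0.71 (SE). In Huh7 and Huh7-C it had 14 and 4 counts, with a log2 ratio of -1.62 ± 0.78 (SE) that was not called. ABCA5, an endosomal and lysosomal member of the same chromosome 17 cluster, had 105 and 47 counts in the Hep3B pair and 21 and 8 in the Huh7 pair. It fell in Hep3B-C with a log2 ratio of -1.83 ± 0.25 (SE) and was not called in Huh7-C at -1.27 ± 0.58 (SE). The ABCA5 ratio in Hep3B-C turned to 0.04 once GC and length trends were removed, its transcript having 33.1% GC.

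ABCA1, which passes cholesterol to apolipoprotein A-I, had 149, 141, 259 and 277 counts in Hep3B, Hep3B-C, Huh7 and Huh7-C, at 51.4, 30.4, 57.1 and 63.9 CPM. Its log2 ratios were -0.76 ± 0.17 (SE) and 0.16 ± 0.12 (SE), neither called, and the first turned to 0.53 with GC and length trends removed. ABCA2, an endolysosomal lipid transporter, moved apart in the pairs. Counts were 132 and 94 in Hep3B and Hep3B-C and 163 and 278 in Huh7 and Huh7-C. It fell in Hep3B-C, 2.25-fold (1.71 to 2.96), at a log2 ratio of -1.17 ± 0.19 (SE), and it stood at 0.83 ± 0.14 (SE) in Huh7-C, past the FDR threshold but under 1 in size. With TMM the log2 ratio of ABCA2 in Hep3B-C was -0.57 and the call was lost. It was -0.04, also not called, with the length trend removed, and -1.84 and called with GC and length trends removed.

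ABCA3, which loads lipid into lamellar bodies, and ABCA7, a phospholipid transporter, were not called in either pair. In Hep3B-C their log2 ratios were -0.80 and -0.93, both past the FDR threshold. Both fell with GC and length trends removed, at -1.44 and -1.76. With TMM they were -0.20 and -0.33, no longer past the FDR threshold, and with the length trend alone removed they turned to 0.15 and 0.04. In Huh7-C they were 0.17 and -0.16. The transcribed pseudogene ABCA11P fell from 36 to 18 counts in the Hep3B pair, at a log2 ratio of -1.66 ± 0.41 (SE), and had 7 and 11 counts in Huh7 and Huh7-C.

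Of 6 members of mitochondria and lysosomes, 3 rose and 1 fell in Hep3B-C, beside 13.2% and 30.4% of all genes. With TMM 4 of the 6 rose and none fell (21.6% and 18.1% of all genes). With GC and length trends removed 2 rose and 1 fell (3.89% and 25.7% of all genes). The summed level of the 6 was 103 CPM in Hep3B and 347 CPM in Hep3B-C, a ratio of 3.39 (2.99 to 3.85). In Huh7-C none was called, and the ratio was 0.931 (0.836 to 1.04). ABCB6 made up 64.5% of the Hep3B-C sum.

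ABCB6, a porphyrin transporter found in the outer mitochondrial membrane and in lysosomes, had 76 counts in Hep3B and 1039 in Hep3B-C. Its levels were 26.2 and 224 CPM, 8.53-fold higher (6.75 to 10.9) with a log2 ratio of 3.08 ± 0.17 (SE), the largest rise of any member with 20 counts. With TMM the log2 ratio was 3.68 and with GC and length trends removed 2.85. Huh7 and Huh7-C had only 4 and 5 counts, or 0.882 and 1.15 CPM, so ABCB6 was near the floor in that lineage.

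ABCB8, a half-transporter of the inner mitochondrial membrane, had 31 counts in Hep3B and 320 in Hep3B-C, against 137 in Huh7 and 128 in Huh7-C. It was 6.44-fold higher in Hep3B-C (4.45 to 9.64), at a log2 ratio of 2.67 ± 0.27 (SE), and the Huh7-C ratio was 0.978 (0.763 to 1.25). The log2 ratio in Hep3B-C was 1.80 with GC and length trends removed. ABCB9, a lysosomal peptide transporter, rose from 8 to 57 counts in the Hep3B pair, 4.45-fold (2.11 to 10.8), at a log2 ratio of 2.08 ± 0.53 (SE). It was 0.92, no longer called, with GC and length trends removed. In Huh7 and Huh7-C it had 47 and 32 counts.

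ABCB10, a mitochondrial member tied to heme synthesis, and ABCD4, which moves cobalamin out of lysosomes, were called in neither pair. Their log2 ratios in Hep3B-C were -0.59 and 0.69, and with TMM that of ABCB10 was 0.00 while ABCD4 rose at 1.29.

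In peroxisomes, ABCD3, which imports branched-chain and bile acid precursors, had 339, 335, 1995 and 1113 counts in Hep3B, Hep3B-C, Huh7 and Huh7-C, or 117, 72.2, 440 and 257 CPM. Its log2 ratios were -0.70 ± 0.11 (SE) and -0.78 ± 0.05 (SE), past the FDR threshold in both pairs and under 1 in size in both. In Huh7-C the ratio for ABCD3 was 0.584 (0.542 to 0.629), and the Hep3B-C value turned to 0.35 with GC and length trends removed.

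ABCC9, the regulatory subunit of ATP-sensitive potassium channels, fell in Hep3B-C. Counts were 107 in Hep3B and 19 in Hep3B-C, or 36.9 and 4.09 CPM, 9.03-fold lower (5.51 to 15.6), at a log2 ratio of -3.14 ± 0.36 (SE). With GC and length trends removed the log2 ratio was -1.49 and ABCC9 was still called. Huh7 and Huh7-C had 44 and 38 counts, a ratio of 0.904 (0.570 to 1.43).

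The ribosome-associated members had the highest summed CPM of the groups by role in each library, with no scaling for length. In Hep3B-C 2 of the 4 rose, beside 13.2% of all genes, and none fell, while in Huh7-C none was called. With TMM 3 of the 4 rose in Hep3B-C (21.6% of all genes), and with GC and length trends removed 1 did, ABCF2 (3.89% of all genes). The 3 ABCF members summed to 410 and 750 CPM in Hep3B and Hep3B-C, a ratio of 1.83 (1.71 to 1.95), and to 496 and 640 CPM in Huh7 and Huh7-C, a ratio of 1.29 (1.22 to 1.36). All 3 had log2 ratios above 0 in both pairs. With GC and length trends removed this held for all but ABCF3 in Hep3B-C, at -0.04.

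ABCF1 had 947, 2500, 1215 and 1478 counts in Hep3B, Hep3B-C, Huh7 and Huh7-C. Its log2 ratios were 0.72 ± 0.06 (SE) and 0.35 ± 0.06 (SE), past the FDR threshold in both pairs but under 1 in size. ABCF2, a cytosolic member of the same subfamily, had 135 and 600 counts in the Hep3B pair and 626 and 846 in the Huh7 pair. It rose 2.77-fold in Hep3B-C (2.30 to 3.37), at a log2 ratio of 1.47 ± 0.14 (SE), and stood at 0.50 ± 0.08 (SE) in Huh7-C. ABCF3 had 106 and 382 counts in the Hep3B pair and 409 and 449 in the Huh7 pair, and rose in Hep3B-C at a log2 ratio of 1.16 ± 0.16 (SE). ABCE1, which splits ribosomes after termination, had 292, 322, 357 and 456 counts. Its log2 ratio was -0.54 ± 0.12 (SE) in Hep3B-C, turning to 0.06 with TMM and to 0.61 with GC and length trends removed, and 0.42 ± 0.10 (SE) in Huh7-C, and neither was called.

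**Figure D3:**
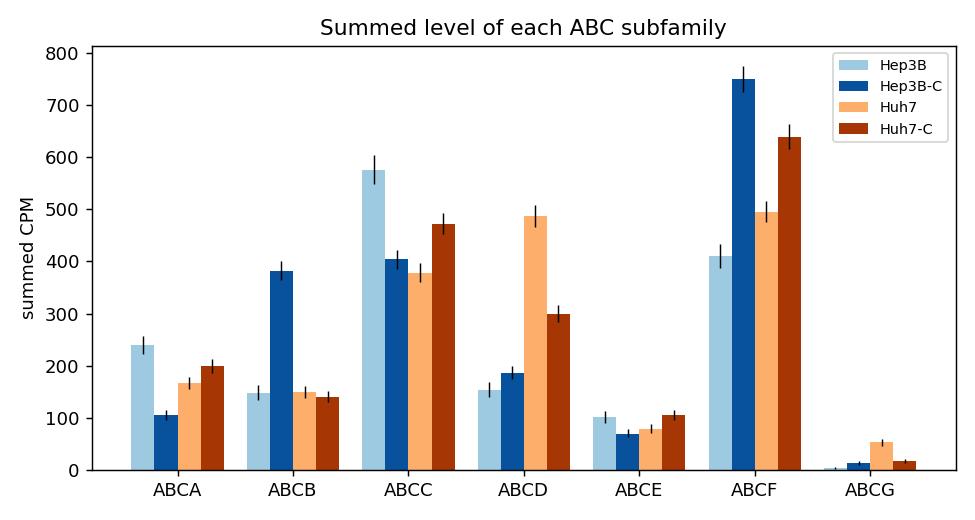
Summed level of each ABC subfamily in the 4 libraries, as bars from 0 in CPM, with the exact 95% Poisson interval of each sum, which covers counting error only. ABCB stands at 148 CPM in Hep3B and 383 CPM in Hep3B-C, while ABCD stands at 487 CPM in Huh7 and 299 CPM in Huh7-C.

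By subfamily, the ratio of summed counts (HCSC/HCC) in the Hep3B pair was 0.438 for ABCA, 2.59 (2.33 to 2.88) for ABCB, 0.701 (0.656 to 0.750) for ABCC, 1.21 (1.08 to 1.36) for ABCD, 0.688 (0.585 to 0.809) for ABCE, 1.83 for ABCF and 4.6 (2.19 to 11.2) for ABCG. The ABCC and ABCE sums turned above 1 with TMM, at log2 ratios of 0.08 and 0.06. In the Huh7 pair the ratios were 1.19 for ABCA, 0.939 (0.840 to 1.05) for ABCB, 1.25 (1.17 to 1.33) for ABCC, 0.614 (0.573 to 0.658) for ABCD, 1.34 (1.16 to 1.54) for ABCE, 1.29 for ABCF and 0.299 (0.225 to 0.393) for ABCG. A single member carried several of these sums. ABCG2 was 79.7% of the ABCG counts in Hep3B-C and 92.4% in Huh7, ABCD3 was 90.3% of the ABCD counts in Huh7, and ABCB6 was 58.5% of the ABCB counts in Hep3B-C. Over all members the ratio was 1.17 (1.13 to 1.21) in the Hep3B pair and 1.04 (1.004 to 1.07) in the Huh7 pair.

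**Figure D4:**
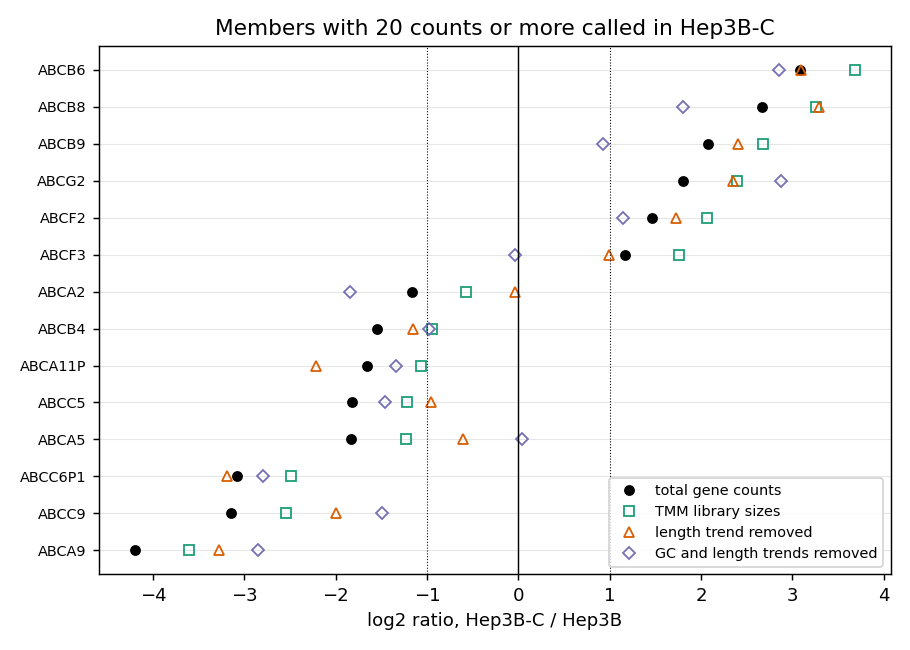
Log2 ratio (Hep3B-C/Hep3B) of 14 members with at least 20 counts called in Hep3B-C, under 4 ways of processing the same counts. Dotted lines mark a log2 ratio of 1 in size. TMM moves every point right by 0.60, and with GC and length trends removed ABCF3 and ABCA5 come to -0.04 and 0.04.

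Members with under 20 counts in every library were ABCA4, ABCA6, ABCA10, ABCA12, ABCA13, ABCA17P, ABCB5, ABCC6P2, ABCC13, ABCD2, ABCG4, ABCG5 and ABCG8. The highest count among these 13 was 17, for ABCG4 in Huh7. Only ABCA10 was called, from 7 counts in Hep3B to 0 in Hep3B-C. With 3 counts, the floor, in place of 0 it was 3.74-fold lower, and its exact interval began at 2.31-fold. The call was lost with TMM, with DESeq2 size factors, with the length trend removed and with GC and length trends removed. ABCG8, a canalicular sterol transporter, had 0 counts in Hep3B and 12 in Hep3B-C, which was not called. It passed with TMM. These genes were named here after their values were seen.

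The parental line of each stem-like culture is given by its label, so the 4 libraries were also fitted together for HCSC against HCC by edgeR's quasi-likelihood test with the parental line as a block. This asks for a difference that is larger than its spread between the lines, with 1 residual degree of freedom. Of 33 members that passed the count filter 0 were called at an FDR of 0.05, where 9 of 11691 genes were called (0.077%). An unadjusted p under 0.05 was found for 3 members, ABCA9 (log2 difference -2.901), ABCC6P1 (-2.21) and ABCB6 (2.37), and the edgeR adjusted p was 0.999 for each. DESeq2 with the same block also called 0, of 27 members with an adjusted p, and gave 2 an unadjusted p under 0.05.

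Genes that work with the ABC members were read from lists in the same way. CFTR, an ABC protein with an own symbol that forms a chloride channel, had 0 counts in Huh7 and 80 in Huh7-C. With 3 counts, the floor, in place of 0 it was 27.9-fold higher, and its exact interval began at 22.2-fold. CFTR had no row in the Hep3B pair. TAP1 and TAP2, the antigen peptide transporters, were called in neither pair. With TMM their Hep3B-C log2 ratios were -0.08 and 1.47, and with GC and length trends removed -1.75 and 1.41. Of 9 carriers for uptake and basolateral exchange, 2 rose and 2 fell in Hep3B-C, beside 13.2% and 30.4% of all genes. SLC22A7, an organic anion carrier, had 0 counts in Hep3B and 66 in Hep3B-C. Against the same floor it was 13.7-fold higher, and its exact interval began at 10.9-fold. SLCO2B1 rose from 10 to 73 counts at a log2 ratio of 2.13 ± 0.48 (SE). SLCO1B3, a bile acid and drug importer, fell from 20 to 3 counts in the same pair. The fourth was a subunit of the basolateral bile acid exporter, OSTalpha, at 19 and 8 counts, named here after its value was seen. In Huh7-C 1 of 5 fell, the exporter's other subunit OSTBETA, from 62 to 12 counts, and none rose, beside 4.15% and 4.19% of all genes. SLCO2B1 had 227 and 433 counts in Huh7 and Huh7-C. Its log2 ratio there was 0.996 ± 0.12 (SE), past the FDR threshold and just under 1 in size.

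Among 8 nuclear receptors and regulators of these transporters, NR1H4, the bile acid receptor FXR, fell in both pairs. It had 165 counts in Hep3B and 16 in Hep3B-C, and 46 in Huh7 and 15 in Huh7-C, at log2 ratios of -4.01 ± 0.37 (SE) and -1.52 ± 0.42 (SE). No other gene of this list was called in Hep3B-C, where 13.2% of all genes rose and 30.4% fell. In Huh7-C the FXR target NR0B2 fell from 36 to 3 counts, and NR1I3, the receptor CAR, from 19 to 0. With 3 counts, the floor, in place of 0 NR1I3 was 6.05-fold lower, and its exact interval began at 4.46-fold. In the Hep3B pair NR0B2 had 66 and 163 counts, at a log2 ratio of 0.62 ± 0.21 (SE), above 0 and not called. That value was 1.21 with TMM and -1.17 with GC and length trends removed. NR1I3 was named after its value was seen. The oxysterol receptors NR1H2 and NR1H3, which switch on ABCA1, were called in neither pair. With TMM their Hep3B-C log2 ratios were 1.57 and 1.05, and with GC and length trends removed -0.69 and -1.11. NFE2L2, the factor of the antioxidant response, stood at -0.88 ± 0.09 (SE) in Hep3B-C and 0.61 ± 0.07 (SE) in Huh7-C and was called in neither.

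Of 7 genes of bile acid synthesis and conjugation, 2 rose and 1 fell in Hep3B-C, beside 13.2% and 30.4% of all genes. CYP27A1 rose from 97 to 581 counts (log2 ratio 1.90 ± 0.16, SE) and SLC27A5 from 6 to 33, while AKR1D1 fell from 60 to 3. With GC and length trends removed CYP27A1 and SLC27A5 were under 1 in size, at 0.47 and 0.13. In Huh7-C 1 of 5 fell, beside 4.15% of all genes. This was BAAT, which joins bile acids to glycine or taurine, from 75 to 1 count. Of 5 peroxisomal partners, ACAA1, a thiolase of peroxisomal beta-oxidation, rose in Hep3B-C (99 to 366 counts) and fell in Huh7-C (723 to 343 counts). With GC and length trends removed its log2 ratios were -0.27 and -0.90, so that the first changed sign and both were under 1 in size. The other 4 were not called in either pair, where 13.2% of all genes rose in Hep3B-C and 4.15% fell in Huh7-C. Of 7 partners of the ribosome-associated members, 2 fell in Hep3B-C and none rose, beside 30.4% and 13.2% of all genes. HBS1L and EIF2AK4 fell, at log2 ratios of -1.06 and -1.17, and none was called in Huh7-C. With TMM these were -0.46 and -0.57, under 1 in size, and HBS1L turned to 0.50 with GC and length trends removed. GCN1L1, a sensor of stalled ribosomes whose yeast form works with an ABCF protein, stood at 0.92 ± 0.05 (SE) and 0.82 ± 0.05 (SE), under 1 in size in both pairs. Its Hep3B-C value was 1.52 with TMM, past that size, and 0.75 with GC and length trends removed.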

How the data were processed

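RNA libraries of 4 cell lines, 1 each, were read on a Genome Analyzer II (Illumina). Adapter and low-quality reads were discarded by the authors, who aligned the rest with NextGENe (version not given in the sources used here) to NCBI Build 36.1 and counted reads per gene. The deposited values were whole-number counts, not normalized, with the gene length in bases. Neither the annotation nor the handling of reads that match several places is given in the sources used here.

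CPM, RPKM and log2 ratios (0.5 added to each count) were computed here from the counts, scaled to total gene counts. Pairs were tested with the Audic-Claverie test (tail doubled, Benjamini-Hochberg over all genes of a pair). Intervals were exact Poisson or binomial and cover counting error only. All 4 libraries were fitted with edgeR 4.0.16 (TMM, filterByExpr), with genes that had no row in a pair taken as 0. The pairing comes from the cell line names, and deviations of the pairs correlated at 0.534 over 11682 genes. The scripts were tested on simulated data. Software was Python 3.11.15, scipy 1.17.1, R 4.3.3 and DESeq2 1.42.0.

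Neighbouring genes and GC content were looked up by Entrez ID in GENCODE release 29 (GRCh38), a newer build than that of the reads, and GC content was known for 99.2% and 99.3% of genes in the Hep3B and Huh7 pairs. Promoters came from RefSeq.

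Members with at least 20 counts in a library could be named. Values were given in full for drug efflux members, for members called in both pairs and for the 8 largest calls per pair. Of related genes, those with 20 counts could be named, and OSTalpha and NR1I3, which had fewer, were named after their values were seen. Some members are not reported here by name, though their counts stay in the sums and tests. The members, lists and tests were chosen with earlier results of these data known. Alternatives were TMM, DESeq2 size factors, 5 added to each count, at least 20 counts over the pair, removal of length or of GC and length trends (lowess, span 0.3), and an assumed biological coefficient of variation (BCV) of 0.4.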

Additional observations from a re-analysis of the deposited data

Results flagged for a closer look

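Members and subfamilies whose ratios had opposite signs in the 2 pairs are listed here, as log2 ratios and as the Hep3B-C value minus the Huh7-C value. None of these differences was tested, since there is 1 library per cell line. ABCG2 had 1.80 (Hep3B-C) and -1.75 (Huh7-C), which is a difference of 3.55. ABCA2 stood at -1.17 and 0.83, a difference of -2.003. ABCC1 stood at -0.86 and 0.40, a difference of -1.25. ABCE1 stood at -0.54 and 0.42, a difference of -0.96. With TMM the Hep3B-C value of ABCE1 was 0.06, so the opposite signs were lost, while those of ABCG2, ABCA2 and ABCC1 were kept.

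For summed counts, ABCG had 2.20 (Hep3B-C) and -1.74 (Huh7-C), which is a difference of 3.94. ABCA stood at -1.19 and 0.26, a difference of -1.45. The ABCD sum stood at 0.28 and -0.70, a difference of 0.98. ABCC stood at -0.51 and 0.32, a difference of -0.83, and with TMM its Hep3B-C value was 0.08.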

How the results depend on the processing

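In Hep3B-C the 7 members that rose became 14 with TMM and 14 with DESeq2 size factors, and the 10 that fell became 5 and 5, since both settings move every ratio of that pair up. With an assumed BCV of 0.4 there were 0 of each in Hep3B-C and 0 in place of 2 that fell in Huh7-C. With GC and length trends removed 7 named members changed sign in Hep3B-C, the called ABCA5 and ABCF3, to 0.0417 and -0.0384, and the uncalled ABCA1 (0.53), ABCC3 (-0.04), ABCC4 (0.25), ABCD3 (0.35) and ABCE1 (0.61). The summed ratio of 1.17 in the Hep3B pair was 1.77 with TMM, 1.88 with DESeq2 size factors, 1.05 without ABCF1 and 1.24 without pseudogenes. The summed ratio of 1.04 in the Huh7 pair was 0.989 with DESeq2 size factors and 1.18 without ABCD3. The other alternatives left the counts of calls within 1.5 times. Over all 4 libraries, 0 members were called with the replicate block, 0 with no replicate block (BCV 0.514 and 0.754) and 0 with no filter. Leaving out each library in turn gave 0 to 0 calls. That fit had no block, which would leave no residual degree of freedom, and took the lone library of a group to vary like the others. No call of a pair has a replicate check, and members near 3 counts cannot show a difference at this depth.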

Other observations

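Members that lie within 300000 bases of each other in GRCh38 were read as clusters, which was done after their values were seen. The cluster ABCA9, ABCA6, ABCA10 and ABCA5 on chromosome 17, from 68974488 to 69327244, summed to 164 counts in Hep3B and 51 in Hep3B-C, 5.15-fold lower (exact 95% interval 3.74 to 7.20). In Huh7 and Huh7-C the same cluster had 40 and 13 counts, 2.94-fold lower (1.54 to 5.99). ABCA5 held most of these counts in all 4 libraries. These sums use total gene counts, and TMM raises every log2 ratio of the Hep3B pair by 0.60. With GC and length trends removed the Hep3B-C log2 ratio of ABCA5 alone was 0.04, and that of ABCA9 was -2.85. The neighbours ABCB8 and ABCF2 on chromosome 7, from 151028422 to 151227230, summed to 166 and 920 counts in the Hep3B pair, a ratio of 3.46 (2.93 to 4.10), and to 763 and 974 in the Huh7 pair, a ratio of 1.34 (1.21 to 1.47).

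Some neighbours were called apart. ABCC5 fell in Hep3B-C while ABCF3, beside it on chromosome 3, rose, and their sum had a ratio of 0.982 (0.847 to 1.14). ABCB4 fell in Hep3B-C and ABCB1 was not called, with a ratio of 0.966 (0.786 to 1.19) for their sum. ABCC1 and ABCC6 lie side by side on chromosome 16. In Hep3B-C both were below 0, at -0.86 and -0.64, with a ratio of 0.590 (0.520 to 0.671) for their sum, and neither was called. In Huh7-C ABCC6 fell, at -1.99, and ABCC1 stood at 0.40. Of the other clusters, ABCA4 with ABCD3 had summed ratios of 0.615 (0.528 to 0.717) in Hep3B-C and 0.585 (0.543 to 0.630) in Huh7-C, nearly all of it ABCD3, and ABCA3 with ABCA17P had 0.576 (0.399 to 0.831) and 1.11 (0.910 to 1.36), nearly all of it ABCA3.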
